A study of Mus musculus with 480 samples.

Results

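Club cells of 2 mouse reporter lines were compared, 15 from BASCs-Tracer and 97 from Scgb1a1-TD, out of the 480 single lung cells of the series. A cell was taken when its label gave the sub-type as club cell and its source as one of these lines. BASCs-Tracer carries the drivers Sftpc-DreER and Scgba1a1-CreER with the reporter R26-RSR-LSL-tdtomato. In it, tdTomato comes on only in a cell where both a tamoxifen-inducible Dre, driven by the AT2 gene Sftpc, and a tamoxifen-inducible Cre, driven by the club cell gene Scgb1a1, have acted. Scgb1a1-TD carries Scgba1a1-CreER with the reporter R26-tdtomato, where the Cre alone is enough. The club cells of both lines therefore carry the Scgb1a1 driver and differ in the second, Sftpc-driven requirement. Cells were epithelial cells sorted singly from digested lungs. The labels give no age, treatment (tamoxifen dose included), pooling or animal, so each line counted as 1 sample and no test between lines was run. The labels do not say how sub-types were assigned, and the assignment may rest on the same reads.

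Club cells are the secretory cells of the small airways. They make secretoglobins, detoxify inhaled compounds through cytochrome P450, aldehyde dehydrogenase and glutathione transferase enzymes, and can divide and give rise to ciliated cells after injury. At the junction of the terminal bronchiole and the alveolus lie bronchioalveolar stem cells (BASCs), which carry both the club cell product Scgb1a1 and the surfactant protein Sftpc of alveolar type 2 (AT2) cells.

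Only plate A2 held club cells of both lines, 8 from BASCs-Tracer and 22 from Scgb1a1-TD. The other 7 BASCs-Tracer cells lay on plate A1, and the other Scgb1a1-TD cells lay on plates A3 (60 cells) and A4 (15 cells). Outside plate A2, line and plate cannot be told apart. The 15 tracer club cells held 14484650 gene-assigned reads (14245 to 3196797 per cell, median 806067) and the 97 Scgb1a1-TD cells 97171266 (4519 to 2419525, median 1082694). The deepest tracer cell gave 22.1% of its group's reads. Levels below are read counts scaled to a common library size (CPM, counts per 1000000 reads), from reads summed over a group, unless a sentence says per cell. Ratios are log2 of tracer over Scgb1a1-TD with 1 CPM added to both, and folds are on that scale.

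The summed level of 24 club cell markers exceeded that of 18 AT2 markers in 15 of 15 tracer cells. It did so in 96 of 97 Scgb1a1-TD cells. As the labels may rest on the same reads, this is no independent check of them. The sums were close in the tracer cells of wells C3 (148608 against 142825 CPM) and D9 (206458 against 196560 CPM) of plate A1. In the cell of well C3, Sftpc (81776 CPM) exceeded Scgb1a1 (50916 CPM). Mitochondrial transcripts made up a median of 2.37% of reads per tracer cell (1.21% to 3.62%) and 3.20% per Scgb1a1-TD cell (1.17% to 12.3%). The median number of genes detected per cell was 5428 and 5307. Among 10475 genes at 5 CPM or more in either group, 2209 (21.1%) were 2-fold or more higher in tracer club cells and 3046 (29.1%) lower. When the library totals excluded mitochondrial genes and the 10 most abundant genes, the split was 1904 higher and 4397 lower, and the median ratio of all measured genes moved by -0.27. Among genes at 50 CPM or more, 26.7% were higher and 10% lower. On plate A2 alone the shares were 26.9% higher and 40.3% lower of 9668 genes. So a difference of this size was common, and counts in gene groups are read against these shares.

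Of 4 genes chosen as markers of this comparison, Chia1 and Areg were the higher pair and Bpifb1 and Reg3g the lower pair. Chia1 encodes acidic mammalian chitinase, a secreted enzyme that breaks down chitin. Areg encodes amphiregulin, a ligand of the EGF receptor. Bpifb1 encodes a secreted protein of the BPI-fold family found in airway lining fluid, and Reg3g a secreted lectin that acts against bacteria. In GRCm38, Chia1 (ENSMUSG00000062778) spans chromosome 3 from 106113229 to 106132120 and Areg (ENSMUSG00000029378) chromosome 5 from 91139599 to 91148432, both on the plus strand. Bpifb1 (ENSMUSG00000027485) spans chromosome 2 from 154190818 to 154220369 on the plus strand, and Reg3g (ENSMUSG00000030017) chromosome 6 from 78466269 to 78468872 on the minus strand.

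The 250 bases before the RefSeq start sites of these genes (GRCm38.p6) are shown because each pair moved together in the pooled reads. RefSeq lists 2 start sites for Bpifb1, so there are 5 windows. The RefSeq start of Chia1 lies inside the gene span given above, so most of its window does too. The second Bpifb1 window also lies inside the span of its gene. They were searched on both strands for 7 motifs: AP-1 (TGANTCA), CRE (TGACGTCA), STAT (TTCNNNGAA), FOXA (TGTTTAC), C/EBP (TTGCNNAA), the NKX2-1 site CAAGTG and the core promoter box spelled TATAAA, called TATA below. Every match found is in capitals.
Chia1, chr3:106113132-106113381, plus strand: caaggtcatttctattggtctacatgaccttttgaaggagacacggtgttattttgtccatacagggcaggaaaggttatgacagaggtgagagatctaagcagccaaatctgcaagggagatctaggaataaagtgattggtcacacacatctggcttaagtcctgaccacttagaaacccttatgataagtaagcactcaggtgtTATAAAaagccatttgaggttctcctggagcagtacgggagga
Areg, chr5:91139349-91139598, plus strand: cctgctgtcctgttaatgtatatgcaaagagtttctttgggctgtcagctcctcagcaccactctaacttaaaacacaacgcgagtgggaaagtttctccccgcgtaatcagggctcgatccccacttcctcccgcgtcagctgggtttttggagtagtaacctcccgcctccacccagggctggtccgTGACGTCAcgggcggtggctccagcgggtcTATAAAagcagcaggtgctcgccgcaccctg
Bpifb1 first start, chr2:154190568-154190817, plus strand: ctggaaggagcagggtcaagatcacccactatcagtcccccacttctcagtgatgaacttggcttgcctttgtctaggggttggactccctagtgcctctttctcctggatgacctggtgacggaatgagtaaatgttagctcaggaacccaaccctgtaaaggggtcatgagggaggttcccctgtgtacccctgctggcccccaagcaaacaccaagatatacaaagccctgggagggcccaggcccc
Bpifb1 second start, chr2:154200130-154200379, plus strand: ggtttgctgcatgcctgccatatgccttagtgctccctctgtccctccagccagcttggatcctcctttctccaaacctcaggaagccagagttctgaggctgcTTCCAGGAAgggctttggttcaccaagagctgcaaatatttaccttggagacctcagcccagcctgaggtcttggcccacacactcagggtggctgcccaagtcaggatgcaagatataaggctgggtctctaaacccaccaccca
Reg3g, chr6:78468875-78469124, minus strand: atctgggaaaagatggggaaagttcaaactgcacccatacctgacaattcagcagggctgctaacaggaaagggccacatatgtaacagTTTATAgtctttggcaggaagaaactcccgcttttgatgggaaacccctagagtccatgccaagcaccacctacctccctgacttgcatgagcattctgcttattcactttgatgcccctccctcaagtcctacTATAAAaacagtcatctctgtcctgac
Chia1, Areg and Reg3g each had a TATA match, at 43, 31 and 27 bases before the start site, and Reg3g had another on the other strand. TATA matches stood in 12.4% of all 32851 windows of this length. Areg alone had the CRE, the palindromic element bound by CREB-family factors, which stood in 1.55% of all windows. The second Bpifb1 window held a STAT match (7.02% of all windows), and the first held none of the 7. None of the 5 windows had a match to AP-1, FOXA, C/EBP or NKX2-1 as spelled here. These matches describe letters in a window and are no evidence of binding.

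Chia1 was high in most tracer club cells. It reached 14048 CPM in tracer club cells (95% Poisson interval 13987 to 14109) against 293.9 CPM in Scgb1a1-TD club cells (290.5 to 297.3), a 47.6-fold difference. Per cell, tracer values ran from 18.4 to 43600 CPM with a median of 6552, and Scgb1a1-TD values from 0 to 4188 CPM with a median of 17.4. All 15 tracer cells lay above the Scgb1a1-TD median and 9 lay above every one of the 97 cells, yet the groups overlapped, because 4 tracer cells were under 1000 CPM and 9 Scgb1a1-TD cells reached it. Poisson intervals on summed reads and intervals on shares of cells cover counting error only, and these PCR reads carry no molecular identifiers.

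The Chia1 difference was present on the shared plate. On plate A2 the pooled levels were 12795 CPM in the 8 tracer cells and 186.6 CPM in the 22 Scgb1a1-TD cells, a 68.2-fold difference. Per cell the tracer median there was 2470 CPM (18.4 to 21740) and the Scgb1a1-TD median 52.8 CPM (4.30 to 2666). On plate A1 all 7 tracer cells stood between 2486 and 43600 CPM, so the 4 low tracer cells were all on plate A2. After each cell was thinned to 100000 reads, 12 of 13 tracer cells (92.3%, exact interval 63.97% to 99.8%) and 37 of 94 Scgb1a1-TD cells (39.4%, 29.4% to 49.98%) had 10 or more Chia1 reads. The same share was 0 of 24 ciliated cells of Scgb1a1-TD, an airway type without secretory granules, which allows a share of up to 12.5%. Without thinning it was 15 of 15, 63 of 97 and 9 of 24. Median depths were 806067, 1082694 and 990495 reads.

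Pooled Chia1 levels of the other annotated groups were lower, up to 5316 CPM in the 1 AT2 cell of Scgb1a1-TD. BASCs of the tracer line, which shared plates A1 and A2 with the tracer club cells, held 1713 CPM, and AT2 cells of Sftpc-TD held 2110 CPM. Tracer club cells were thus at 820% of the level in tracer BASCs, whereas they held 8.19% of the Sftpc and 3.08% of the Lyz2 of the same BASCs. Of 3 measured chitinase-family genes Chia1 was the 1 that was 2-fold or more higher over all plates. Chil1, a chitinase-like protein without enzyme activity, was at 2111 against 1920 CPM (log2 ratio 0.14).

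Areg was lower in abundance and more uneven. It reached 231.97 CPM in tracer club cells (224.2 to 239.9) against 2.71 CPM (2.39 to 3.05), a 62.9-fold difference. Per cell, tracer values ran from 0 to 1641 CPM with a median of 18.1, and Scgb1a1-TD values from 0 to 94.9 CPM with a median of 0. The 6 tracer cells at or above 100 CPM lay above all 97 Scgb1a1-TD cells, while the other 9 tracer cells lay within the Scgb1a1-TD range. Each of these 6 also had 1000 CPM or more of Chia1, as did 11 of all 15 tracer cells, so the overlap shows no link between both genes. Without the highest cell (well F1 of plate A1) the log2 ratio was 5.24 in place of 5.97. On plate A2 the fold was 30.1, with 110.1 against 2.69 CPM, and the per-cell medians were 4.06 and 1.36 CPM. After thinning, 5 of 13 tracer cells (38.5%, 13.9% to 68.4%) and 2 of 94 Scgb1a1-TD cells (2.13%, 0.259% to 7.48%) had 10 or more Areg reads; without thinning it was 7 of 15 and 4 of 97. Areg was not limited to tracer club cells: 7 of 24 Scgb1a1-TD ciliated cells (29.2%) and 24.1% of tracer BASCs also had 10 or more thinned reads.

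**Figure D1:**
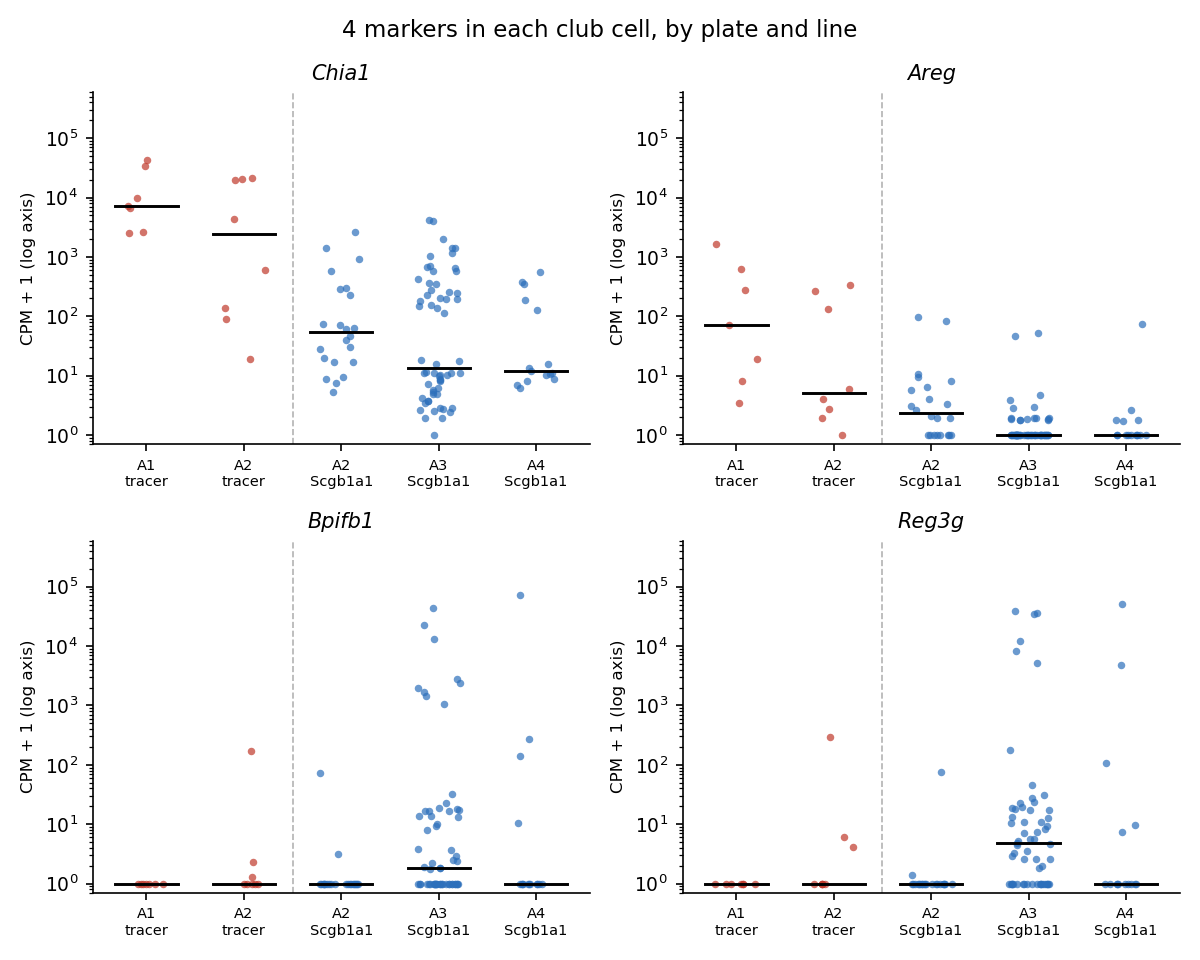
Level of Chia1, Areg, Bpifb1 and Reg3g in each club cell, as CPM with 1 added on a log axis; red points are BASCs-Tracer cells, blue points Scgb1a1-TD cells, columns are plates and black bars are medians. Chia1 is at 1000 CPM or more in 7 of 7 tracer cells of plate A1 and 4 of 8 of plate A2 (medians 7173 and 2470 CPM). Bpifb1 and Reg3g are high only in some Scgb1a1-TD cells of plates A3 and A4.

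Bpifb1 and Reg3g behaved differently from the first pair. Bpifb1 stood at 0.690 CPM in tracer club cells (0.331 to 1.27, 10 reads) against 1943 CPM, and Reg3g at 1.93 CPM (1.29 to 2.79, 28 reads) against 2201 CPM. Yet the median per-cell level was 0 CPM in both lines for both genes. The pooled difference came from few cells: the top 5 of 97 Scgb1a1-TD cells held 95.3% of the Bpifb1 reads and 92.5% of the Reg3g reads. Per cell the highest values were 72869 CPM of Bpifb1 and 51838 CPM of Reg3g in Scgb1a1-TD, against 167.1 and 292.4 CPM in tracer club cells.

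The Scgb1a1-TD cells with 1000 CPM or more numbered 10 of 97 for Bpifb1 (10.3%, exact interval 5.06% to 18.1%) and 8 of 97 for Reg3g (8.25%). They were largely the same cells: 7 cells passed for both, which is 70% of the Bpifb1 cells and 87.5% of the Reg3g cells. All of them lay on plates A3 and A4, and 0 of 22 Scgb1a1-TD cells on plate A2 passed for either gene. In tracer club cells 0 of 15 passed, which allows a share of up to 20%, so at this number of cells a share like that of Scgb1a1-TD was not detectable as different. On plate A2 Bpifb1 stood at 1.06 CPM in tracer and 2.23 CPM in Scgb1a1-TD cells, and Reg3g at 2.96 and 1.90 CPM. Neither gene was 2-fold apart there, with log2 ratios of -0.65 for Bpifb1 and 0.45 for Reg3g.

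Scgb3a1, a secretoglobin of the larger airways, was high in an overlapping set of cells but also differed on plate A2. It stood at 5.11 CPM in tracer club cells (74 reads) and 3362 CPM in Scgb1a1-TD club cells. Of 97 Scgb1a1-TD cells, 14 had 1000 CPM or more, among them all 8 of the high Reg3g cells and 9 of the 10 high Bpifb1 cells. On plate A2, 2 of 22 Scgb1a1-TD cells passed that level and 0 of 8 tracer cells did, with pooled levels of 665.8 and 6.02 CPM.

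The wider group of secreted airway defence proteins, which also holds lactoferrin, mucins and the immunoglobulin transporter Pigr, had 11 of 16 measured members 2-fold or more lower in tracer club cells, 1 higher and a median ratio of -4.30, beside -0.07 over all measured genes. The list contains the markers Bpifb1 and Reg3g, and Scgb3a1 and Bpifa1, so its count and median partly repeat their values and are no separate support. Of its 20 listed members, 8 had no read in tracer cells. Bpifa1, Bpifb1, Reg3g and lactoferrin (Ltf, 0.138 CPM) were below 5 CPM there. They passed the filter through Scgb1a1-TD reads alone and could not count as higher. Over all genes 21.1% were higher and 29.1% lower. On plate A2, 5 of 10 members were lower, 1 was higher and the median was -1.83, beside 26.9% of all genes higher and 40.3% lower. Taken from the median over cells, the list median was -0.32. Pigr, named here after its values were seen, was at 103.97 against 584.8 CPM (log2 ratio -2.48, and -2.84 on plate A2). The higher member was Slpi, a protease inhibitor, at 25.7 against 1.83 CPM. Bpifa1, a relative of Bpifb1, had 2 tracer reads against 1221 CPM in Scgb1a1-TD, and 98.9% of the latter lay in 5 cells. Of the goblet cell markers, 9 of 9 measured were lower (median -3.98, which was -4.85 without the cell of well C3, plate A1, and -5.01 without that of well G2, plate A2). Of the 10 listed, 5 had no read in tracer cells, so they passed the filter through Scgb1a1-TD reads alone and could only count as lower. Fcgbp (0.069 against 9.18 CPM) and Itln1 (1.52 against 31.3 CPM) also passed through Scgb1a1-TD reads alone. On plate A2, 3 of 3 measured were lower. The summed level of the list had near equal per-cell medians, 23.2 CPM in tracer and 27.5 CPM in Scgb1a1-TD cells. Muc5b, the main airway mucin of mice, was at 64.2 against 577.6 CPM, although the per-cell median was 4.29 CPM in tracer and 2.83 CPM in Scgb1a1-TD cells. Its log2 ratio of -3.15 was -4.85 without the cell of well C3, plate A1. Levels of 10 measured pan-epithelial markers were all within 2-fold over all plates, and on plate A2 2 of 10 were higher and 1 was lower.

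Some core club cell genes were lower in tracer cells, by less, while 14 of 23 measured club cell markers were within 2-fold. Among those 14, Hp was at 12418 against 12570 CPM and Sec14l3 at 4126 against 2463 CPM. Scgb1a1 itself, the secretoglobin whose promoter drives the Cre in both lines, made up 139724 CPM of tracer and 258576 CPM of Scgb1a1-TD reads (log2 ratio -0.89). Per cell it ran from 44109 to 260804 CPM (median 146157) in tracer and from 113019 to 465043 CPM (median 257566) in Scgb1a1-TD cells. Of the tracer cells, 14 of 15 were below the Scgb1a1-TD median and 6 were below all 97 cells. On plate A2 the medians were 152149 and 303575 CPM, 8 of 8 tracer cells were below the latter, and 5 were below all 22 Scgb1a1-TD cells.

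Among enzymes of the club cell, Aldh1a1 and Aldh3a1 were more than 2-fold lower, while the related Aldh1a7 was at 891.6 against 1027 CPM. Aldh1a1, an aldehyde dehydrogenase that makes retinoic acid, was at 1795 against 4660 CPM, with a per-cell range of 498.2 to 3810 (median 1371) in tracer and 9.46 to 11819 (median 4647) in Scgb1a1-TD cells. All 15 tracer cells were below the Scgb1a1-TD median, though the ranges overlapped. Aldh3a1, which detoxifies lipid aldehydes, was 11.02-fold lower (41.8 against 471.1 CPM), its per-cell median was 2.83 against 351.02 CPM, and 15 of 15 tracer cells were again below that median. Without the tracer cell of well F5, plate A2, its log2 ratio of -3.46 was -4.28. Cyp2f2, the P450 that defines mature club cells, was at 23808 against 32264 CPM, a difference under 2-fold, and it too was below the Scgb1a1-TD median in 15 of 15 tracer cells. Cbr2, a carbonyl reductase, went the other way, at 54759 against 35111 CPM, with 13 of 15 tracer cells above the Scgb1a1-TD median.

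Across the club cell list 9 of 23 measured members were 2-fold or more lower, 0 were higher, and the median ratio was -0.66; on plate A2, 7 of 23 were lower, 0 were higher and the median was -0.67. The share of lower members, read against 29.1% over all genes, was not far from the background, whereas 0 higher stood beside 21.1%. In the xenobiotic metabolism list 9 of 26 were lower and 1 was higher (median -0.36). The higher one was Cyp2b10, a P450 induced by foreign compounds, named after its value was seen, at 1163 against 202.2 CPM. It was 7.39-fold higher on plate A2. Scgb3a2, the other secretoglobin of the small airways, was at 11010 against 22567 CPM (log2 ratio -1.03, and -0.67 on plate A2). Without the tracer cell of well F6, plate A2, it was -2.20.

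Further enzymes were among the genes furthest lower by the naming rule. Cyp4f15, a fatty acid hydroxylase of the P450 family, was at 1.17 against 122.6 CPM and at 1.48 against 130.4 CPM on plate A2. Its per-cell median was 0 against 53.8 CPM, with 14 of 15 tracer cells below the latter. Gsta2, a glutathione transferase, had 3 tracer reads (0.207 CPM, 0.0427 to 0.605) against 76.9 CPM (75.2 to 78.7), with 15 of 15 tracer cells below the Scgb1a1-TD median of 25.9 CPM. Bcat2, which starts branched-chain amino acid breakdown in mitochondria, was at 0.759 against 70.4 CPM. Fuca1, a lysosomal fucosidase, was at 15.1 against 181.1 CPM, and Lypd2, a surface protein of the Ly6 family, at 15.95 against 283.98 CPM. Pla2g4a, a phospholipase that releases arachidonic acid, was at 1.66 against 58.3 CPM. Without 1 tracer cell (wells H7, H7, F6 of plate A2 and D7 of plate A1) the log2 ratios of Cyp4f15, Pla2g4a, Lypd2 and Fuca1 were -6.59, -5.61, -4.86 and -4.66, each further from 0. Reads of the closely related Cyp, Gsta, Bpif and H2 genes may be shared between copies.

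Several alveolar genes were higher in tracer club cells, though on plate A2 the count of AT2 markers was near that of all genes. Sftpc, the gene whose promoter drives the Dre of the tracer line, was at 14297 against 4062 CPM (3.52-fold, and 3.47-fold on plate A2). Per cell it ran from 459.5 to 85855 CPM (median 8332) in tracer cells and from 219.7 to 165660 CPM (median 780.3) in Scgb1a1-TD cells, with 13 of 15 tracer cells above the latter median and 0 above all cells. Napsa, the protease that processes surfactant protein B, was at 342.4 against 48.2 CPM, and 11 of 15 tracer cells were above the 90th percentile of Scgb1a1-TD cells. Lyz2, the lysozyme of AT2 cells and macrophages, was at 2665 against 1468 CPM over all plates, but at 1383 against 1976 CPM on plate A2.

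Of 18 AT2 markers 9 were 2-fold or more higher, 0 were lower and the median ratio was 1.04. Over all genes 21.1% were higher and 29.1% lower. On plate A2, 5 of 17 AT2 markers were higher, near the 26.9% of all genes there, 2 were lower and the median was 0.44. Sftpa1 and Sftpb, surfactant genes that club cells also express, were both within 2-fold, at 23452 against 19490 CPM and 6665 against 4029 CPM. The level of AT2 transcripts in club cells also differed by plate within one line. In Scgb1a1-TD club cells the lowest Lyz2 value was 369.9 CPM on plate A2, which held tracer BASCs too, 50.8 CPM on plate A3 and 227.6 CPM on plate A4, and the Sftpc median was 1991, 646.7 and 733.0 CPM. The part of this plate difference in the AT2 result was not tested beyond the plate A2 values given.

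**Figure D2:**
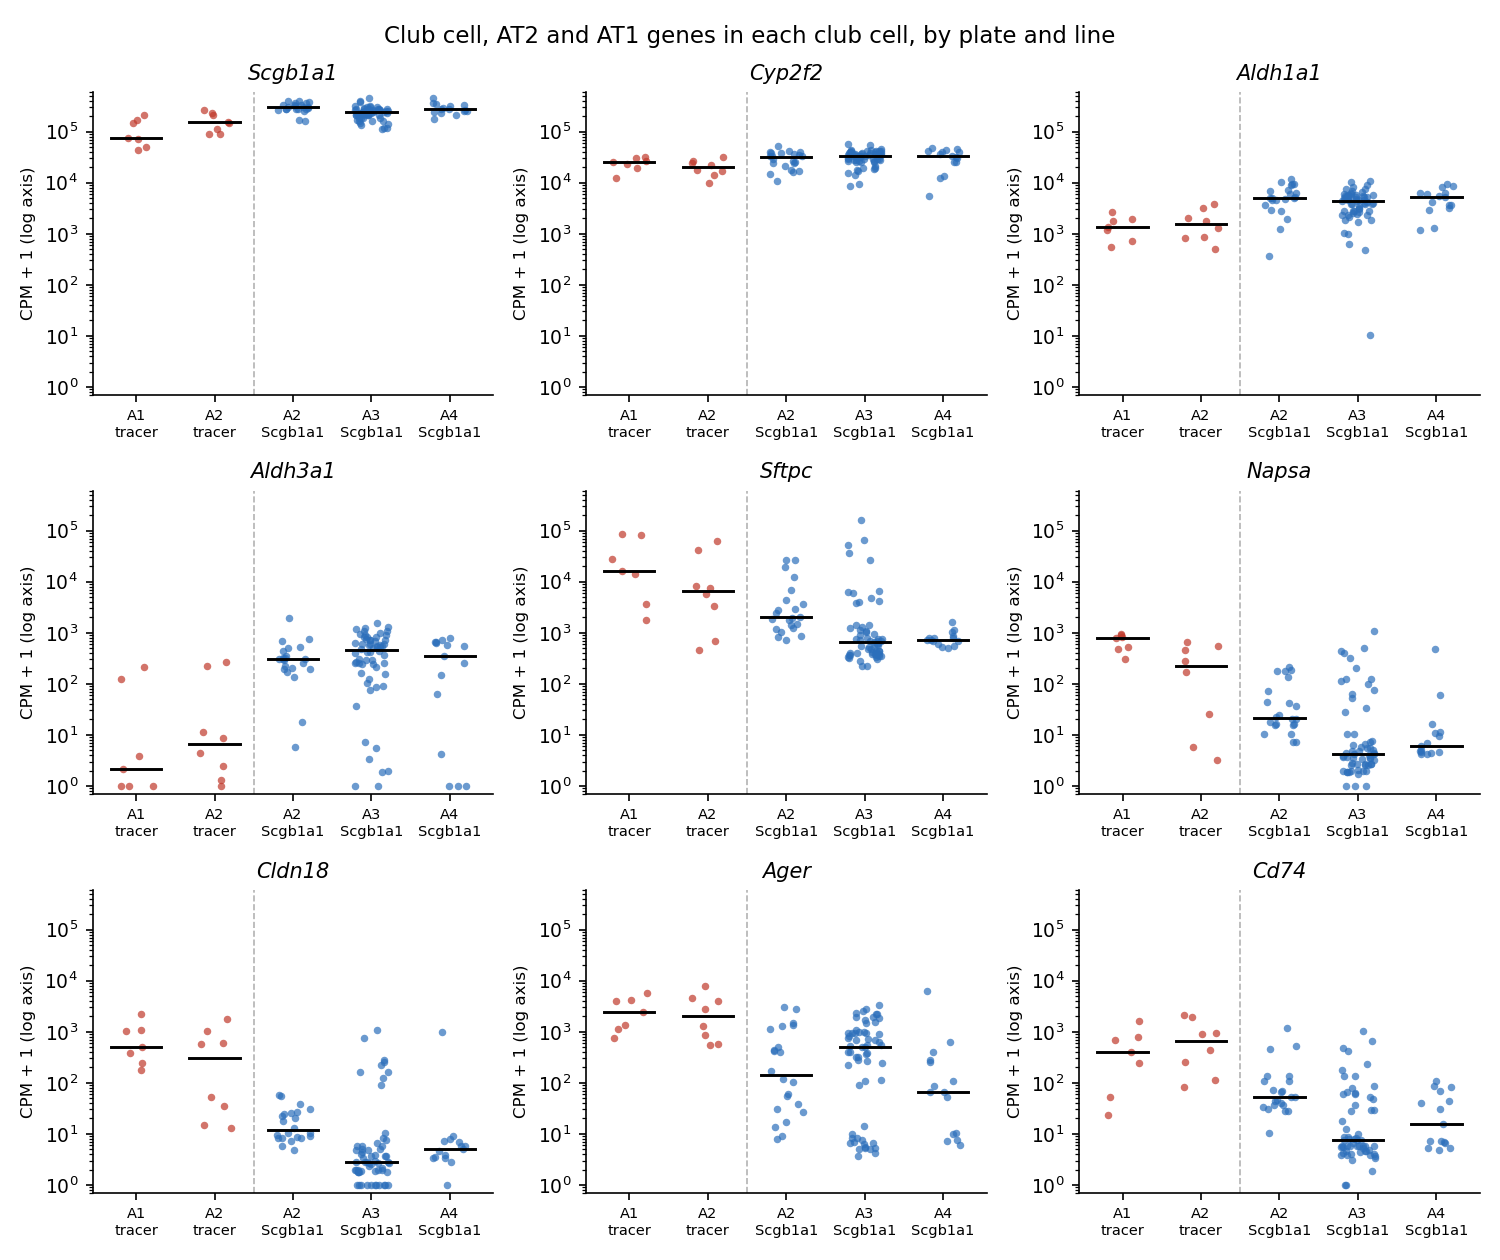
Level of 4 club cell genes (Scgb1a1, Cyp2f2, Aldh1a1, Aldh3a1) and 5 alveolar or antigen-presentation genes in each club cell, as CPM with 1 added on a log axis, by plate and line; black bars are medians. The tracer cells (red) sit low in Scgb1a1, Aldh1a1 and Aldh3a1 and high in Napsa, Cldn18, Ager and Cd74 on plates A1 and A2, with overlap in every gene.

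A tight junction gene and some AT1 markers were higher in tracer club cells too. Cldn18, a claudin of alveolar tight junctions, was at 858.1 against 54.8 CPM, 15.4-fold higher, and its per-cell range was 12.2 to 2211 CPM (median 491.4) against 0 to 1077 CPM (median 3.72). All 15 tracer cells were above that median. On plate A2 it was 69.4-fold higher, since Scgb1a1-TD cells there did not exceed 57.1 CPM. Its level in tracer club cells was 89.7% of that in tracer BASCs. Ager, the receptor RAGE that marks AT1 cells, was at 3137 against 656.5 CPM, with 544.4 to 8011 CPM (median 2438) against 2.61 to 6153 CPM (median 317.5) per cell and 15 of 15 tracer cells above the lower median. Clic5 (474.02 against 106.5 CPM), a chloride channel-like protein of AT1 cells, was higher too. The water channel Aqp5 was at 638.7 against 275.7 CPM over all plates (log2 ratio 1.21), but under 2-fold on plate A2 (0.59). Clic5 had a log2 ratio of 2.14, and 1.20 without the cell of well F2, plate A2. In all, 4 of 9 measured AT1 markers were higher and 1 lower, with a median of 0.97 and, on plate A2, 2.27. Over all genes 21.1% were higher and 29.1% lower. The lower marker was Cav1 (5.52 against 14.98 CPM), and Vegfa (28.7 against 37.6 CPM) was among those within 2-fold. No group here was labelled AT1. In tracer AT2 cells Ager was at 1778, Aqp5 at 615.7 and Clic5 at 152.4 CPM, and in tracer BASCs at 1901, 294.4 and 86.9 CPM. So Ager and Aqp5 do not set an AT1 signal apart from AT2 or BASC expression in these data.

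Cd74 was higher among genes of antigen presentation, whereas the lists as a whole were mixed. Cd74, the invariant chain of MHC class II, was at 553.4 against 51.8 CPM, a 10.5-fold difference that was 8.48-fold on plate A2. Its per-cell range was 22.6 to 2112 CPM (median 446.3) against 0 to 1203 CPM (median 17.2), and 15 of 15 tracer cells were above that median. All 3 measured class II genes were higher (Cd74, H2-Aa and H2-Ab1), although H2-Aa was at only 16.2 against 3.33 CPM and 4 listed members were below 5 CPM in both lines. On plate A2, 2 of 3 were higher, with H2-Aa at a log2 ratio of 0.81, and for the tracer cells of plate A1 alone H2-Ab1 was at -0.06. With those low members the list median was -0.11 in place of 1.99. Without the tracer cell of well G2, plate A2, the log2 ratio of H2-Aa was 0.95, under 2-fold, and without that of well B2 that of H2-Ab1 was 1.004. The class I heavy chain H2-K1 was at 461.1 against 209.4 CPM, while 1 of 8 class I and antigen processing genes was higher and 2 were lower (median 0.42, and -0.48 on plate A2). The list counts here stand beside 21.1% of all genes higher and 29.1% lower, and 26.9% and 40.3% on plate A2. Those of class I did not exceed these shares. Among leukocyte markers, 2 of 3 measured were higher too (Tyrobp at 7.39 against 0.679 CPM and Fcer1g at 8.01 against 1.27 CPM), with a median of 1.99 over all plates and 3.47 on plate A2, and 3 of the 10 listed had no read in tracer cells. The summed level of the list was 0 to 1031 CPM per tracer cell (median 111.3) and 0 to 863.3 CPM per Scgb1a1-TD cell (median 97.02). Ciliated cell markers had 1 of 7 higher and 4 lower over all plates, and 2 of 3 higher on plate A2, with summed per-cell medians of 96.6 and 12.8 CPM. Their median ratio of -1.64 was -0.70 without the tracer cell of well F2 and -2.74 without that of well E4, both of plate A2. The part of these markers in the results was not tested.

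**Figure D3:**
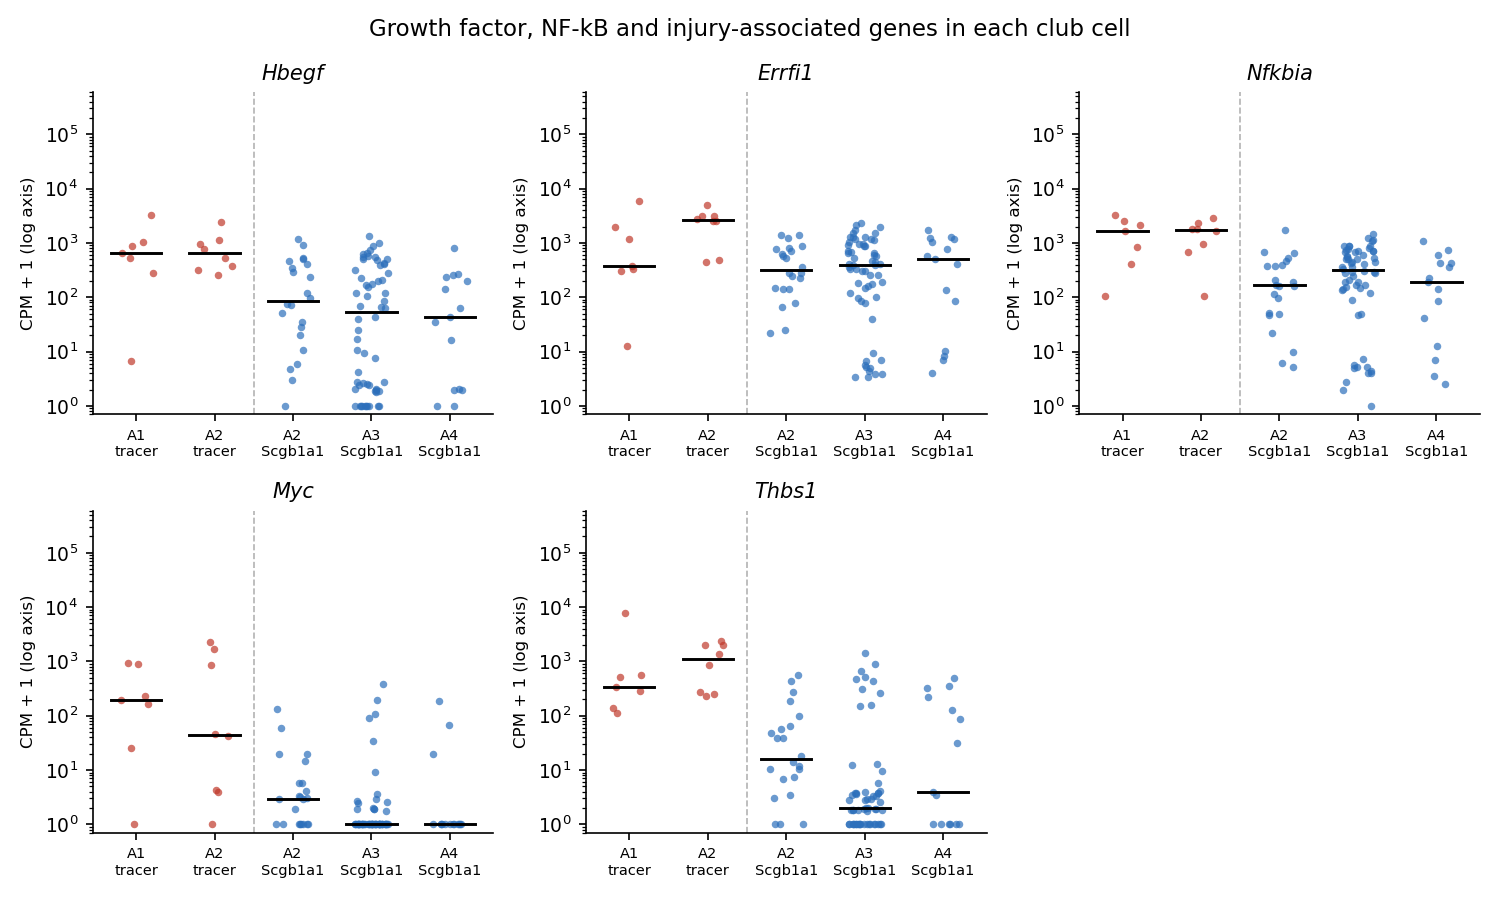
Level of Hbegf, Errfi1, Nfkbia, Myc and Thbs1 in each club cell, as CPM with 1 added on a log axis, by plate and line; black bars are medians. Tracer cells (red) have higher medians for Hbegf, Nfkbia, Myc and Thbs1 on both of their plates, whereas for Errfi1 the tracer cells of plate A2 are high (median 2658 CPM) and those of plate A1 are not (373.4 CPM).

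Some other genes of EGF receptor signalling were higher beside Areg. In this pathway, ligands shed from the cell surface activate receptors that induce their own feedback inhibitors. Of 8 measured members of the list, 4 were 2-fold or more higher and 0 lower, with a median of 1.24 (5 higher and 1 lower on plate A2, median 1.43). Areg itself is 1 of the 4. Over all genes 21.1% were higher and 29.1% lower. The receptor genes Erbb2 (57.1 against 57.96 CPM) and Erbb3 (61.6 against 54.2 CPM) were within 2-fold, and Egfr was at 0 against 2.72 CPM. With the low members kept in, the median of the list was 0.13. The ligand Hbegf was at 884.9 against 207.6 CPM, per cell 5.67 to 3317 (median 641.2) against 0 to 1330 (median 62.3), with 14 of 15 tracer cells above the Scgb1a1-TD median. The ligand Btc was at 222.4 against 38.9 CPM. Errfi1, the feedback inhibitor induced by the active receptor, was at 2181 against 571.5 CPM, with 7 of 15 tracer cells above all 97 Scgb1a1-TD cells. On plate A2, 6 of 8 tracer cells were above all 22 Scgb1a1-TD cells, whereas the tracer median on plate A1 (373.4 CPM) was below that of plate A3 in the other line (393.5 CPM). The BASCs of both lines differed too. Hbegf was at 320.6 CPM in tracer BASCs and 57.5 CPM in Scgb1a1-TD BASCs, and Errfi1 at 1135 and 404.95 CPM. Erbb2 was at 42.5 and 34.6 CPM in them.

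Genes induced by NF-kB, among them its inhibitors Nfkbia and Tnfaip3, were higher as well. NF-kB is an inflammatory transcription factor that switches on its own inhibitors. Of 11 measured feedback and target genes of NF-kB, which include Nfkb2, Icam1 and Sod2 beside the inhibitors, 8 were higher and 0 lower (median 1.77), and on plate A2, 7 of 12 were higher and 2 lower (median 2.21). Over all genes 21.1% were higher and 29.1% lower, and on plate A2 26.9% and 40.3%. Nfkbia, which encodes the inhibitor that holds NF-kB in the cytoplasm, was at 1736 against 363.5 CPM. Its per-cell range was 102.4 to 3300 CPM (median 1686) against 0 to 1753 CPM (median 275.4), and 11 of 15 tracer cells were above the 90th percentile of Scgb1a1-TD cells. Nfkbiz was 7.85-fold higher. Tnfaip3, a ubiquitin-editing brake on the pathway, was at 74.3 against 8.51 CPM, and the adhesion molecule Icam1 at 763.5 against 303.1 CPM. Icam1 was under 2-fold on plate A2 (log2 ratio 0.93) and without plate A1 (0.66). Among alarmins and chemokines 4 of 10 were higher and 3 lower; the neutrophil chemokine Cxcl1 was at 276.4 against 5.07 CPM, but its median was 2.08 CPM per tracer cell, so few cells carried it. Without 1 tracer cell of plate A2 (wells G2 and F5) the log2 ratio of Tnfaip3 was 2.06 in place of 2.99 and that of Cxcl1 4.66 in place of 5.51. Such differences were not limited to club cells. Nfkbia was at 1471 CPM in tracer BASCs and 502.4 CPM in Scgb1a1-TD BASCs, Nfkbiz at 251.3 and 97.9 CPM. Cxcl1 was at 161.4 and 11.9 CPM in the same BASCs, whereas Sod2 was at 120.8 and 188.9 CPM. The part of line or plate in this was not tested.

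The list of airway injury and transitional epithelial genes holds keratins, matrix proteins and wound-associated genes. It had 10 of 17 measured members higher and 1 lower (median 1.44), beside 21.1% and 29.1% of all genes. On plate A2, 11 of 16 were higher and 0 lower (median 1.81). Areg and Hbegf are in this list as well. Thbs1, the matrix glycoprotein thrombospondin 1, was at 1346 against 90.03 CPM, per cell 109.98 to 7697 (median 526.01) against 0 to 1404 (median 2.43), and 15 of 15 tracer cells were above that median. Plaur, the urokinase receptor, was at 476.6 against 23.5 CPM, and the matrix-associated protein Ccn1 at 4279 against 915.4 CPM. Krt8 and Krt18, the simple epithelial keratins, were within 2-fold, at 1399 against 752.2 CPM and 1472 against 859.1 CPM.

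Myc, a transcription factor that drives growth, was 38.7-fold higher, at 711.9 against 17.4 CPM. Its per-cell values ran from 0 to 2291 CPM (median 160.0) in tracer cells and from 0 to 389.3 CPM (median 0) in Scgb1a1-TD cells, with 5 tracer cells above all 97 and 2 at 0. On plate A2 it was 32.4-fold higher. Without the cell of well F2, plate A2, its log2 ratio of 5.28 was 4.54. Its level was 59.6 CPM in tracer BASCs and 8.83 CPM in Scgb1a1-TD BASCs. The genes of ribosome biogenesis listed with Myc were mostly within 2-fold, with 3 of 15 higher including Myc, 1 lower and a median of 0.52, which was -0.10, -0.33 or -0.19 without the cell of well B2, G2 or A3 of plate A2. Cell cycle genes had 1 of 13 higher and 9 lower (median -2.54), beside 21.1% and 29.1% of all genes. Only 4 were measured on plate A2, where 0 were higher and 1 was lower. Lower members such as Top2a (0.345 against 31.7 CPM) and Cdk1 (0 against 7.93 CPM) passed the filter through Scgb1a1-TD reads alone. The per-cell medians of these 2 genes were 0 CPM in both lines. With 10 CPM added the list median was -0.73. Its summed level had per-cell medians of 312.9 CPM in tracer and 348.3 CPM in Scgb1a1-TD cells, so less cycling in tracer cells is not shown.

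Immediate early genes, switched on within minutes of a growth signal or stress, had 10 of 19 higher and 0 lower (median 1.01), and 10 of 19 higher and 1 lower on plate A2. This and the other list counts below stand beside 21.1% of all genes higher and 29.1% lower. Dusp1, a phosphatase that switches off MAP kinases, was at 2480 against 803.8 CPM and Egr1 at 2202 against 970.5 CPM, whereas Fos was at 2880 against 2758 CPM. The chaperones Hspa8 (2437 against 1049 CPM) and Hsp90aa1 (1062 against 394.6 CPM) were higher, and in the chaperone list as a whole 3 of 10 were higher and 2 lower. Of 10 ER stress genes 3 were higher and 1 lower, with Dnajb9 at 826.9 against 154.8 CPM and the chaperone Hspa5 at 1150 against 1082 CPM. Without 1 tracer cell of plate A2 (wells F5 and F2) the log2 ratio of Hsp90aa1 was 0.82, under 2-fold, and that of Dnajb9 1.15. Mitochondrially encoded genes had 0 of 15 higher and 2 lower over all plates, and 0 higher and 8 lower of 15 on plate A2. Their part in the other differences was not tested. Tracer BASCs also stood above Scgb1a1-TD BASCs in some genes of this group, with Hspa8 at 1662 and 697.3 CPM and Egr1 at 1669 and 947.0 CPM. Fos was at 3044 and 2602 CPM in them.

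Several further genes named by size of difference were high in few tracer cells. Pdk4, a kinase that turns off pyruvate dehydrogenase, was at 208.7 against 1.51 CPM with a tracer median of 0.960 CPM per cell. Kcne2, a potassium channel subunit (98.9 against 4.54 CPM), Rasd1, a small GTPase (144.7 against 7.56 CPM), the magnesium transporter gene Nipal1 (66.3 against 2.59 CPM) and Lamb3, a laminin chain of the basement membrane (120.4 against 8.26 CPM), had tracer medians between 0.480 and 3.40 CPM. Rasgef1b, 13.2-fold higher, had a tracer median of 83.5 CPM, and 12 of 15 tracer cells were above the Scgb1a1-TD median of 0. Without the cell of well F2, plate A2, which gave 22.1% of the tracer reads, the log2 ratios of Pdk4, Kcne2 and Rasgef1b were 4.77, 3.33 and 3.02 in place of 6.38, 4.17 and 3.73, and without that of well H11, plate A1, that of Lamb3 was 2.79 in place of 3.71.

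The counts of other lists stand beside 21.1% of all genes higher and 29.1% lower, and 26.9% and 40.3% on plate A2. Lipid and sterol synthesis had 4 of 14 higher and 1 lower. The interferon response had 2 of 12 higher and 4 lower (median -0.49), and on plate A2 3 of 11 higher and 6 lower (median -2.30). Circadian clock genes had 6 of 16 higher and 3 lower, among the higher ones the repressors Per3 (129.9 against 28.8 CPM) and Bhlhe40 (271.05 against 74.1 CPM). Airway and alveolar transcription factors had 4 of 21 higher and 4 lower, and Nkx2-1, the factor common to lung epithelium, was within 2-fold at 224.4 against 118.8 CPM. Without the cell of well F2, plate A2, the log2 ratio of Bhlhe40 was 1.18 in place of 1.86.

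**Figure D4:**
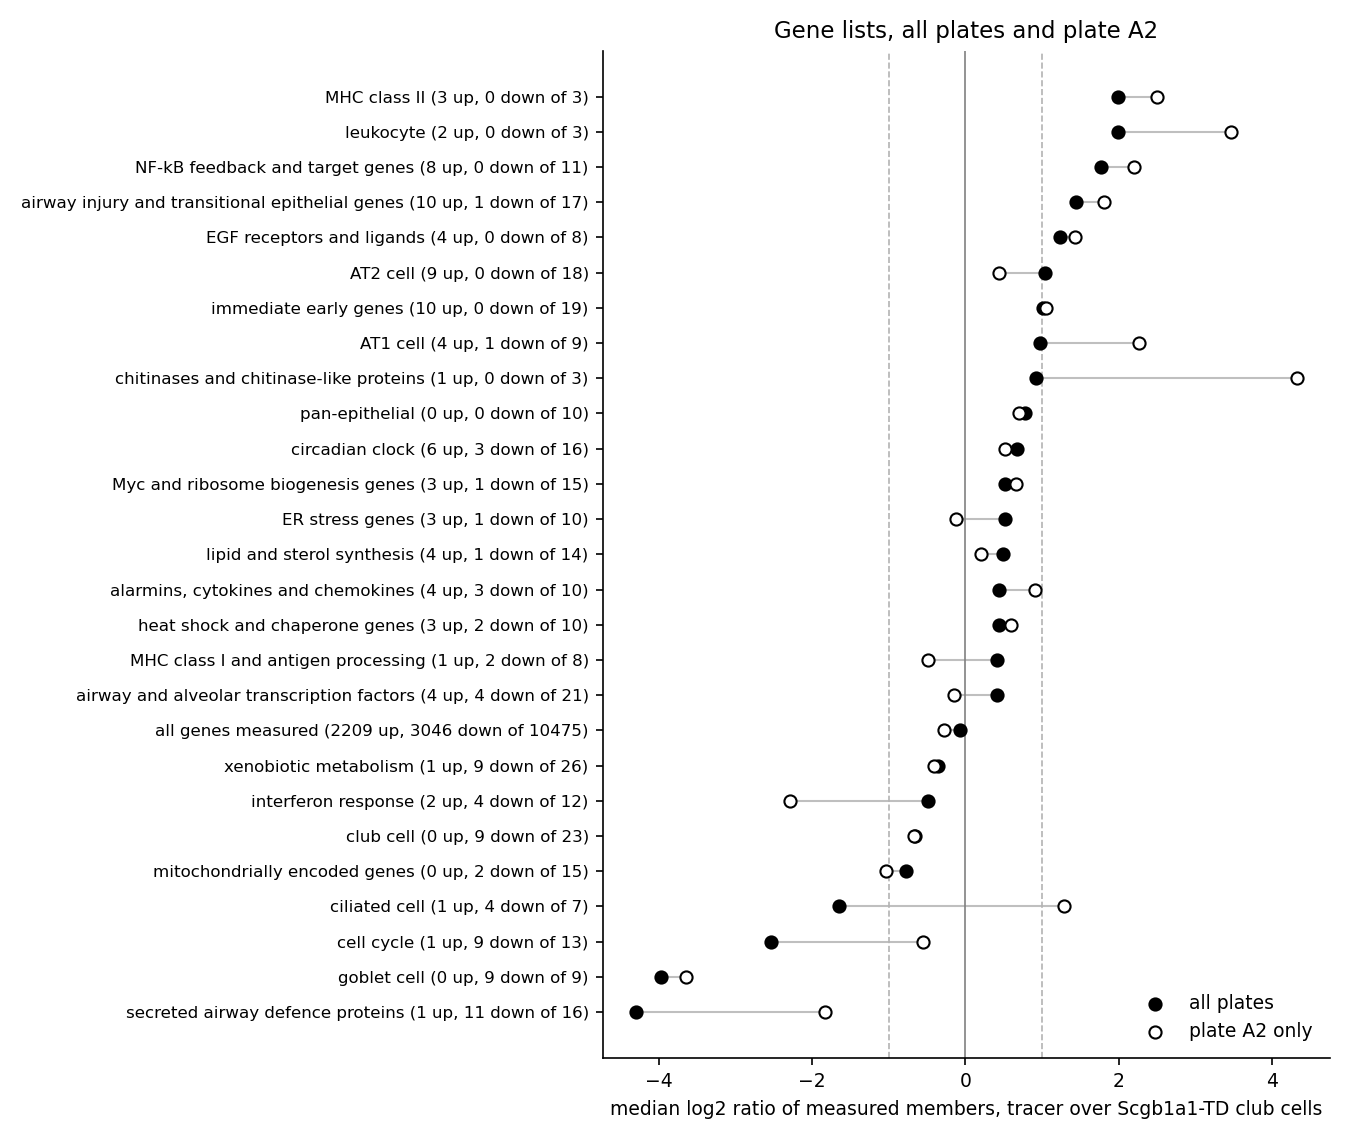
Median log2 ratio of the measured members of each gene list, tracer over Scgb1a1-TD club cells; filled points are all plates, open points plate A2 only, dashed lines mark 2-fold, and the labels give members 2-fold or more higher (up) and lower (down). The NF-kB, injury and EGF receptor lists lie right of 1 in both, the club cell list lies at -0.66 and -0.67, and the ciliated list changes sign.

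The comparison over all plates and the repeat on plate A2 share the 8 tracer and 22 Scgb1a1-TD cells of that plate, so they are not independent, and their values are set side by side only. Chia1 (log2 ratio 5.57 over all plates, 6.09 on plate A2), Areg (5.97, 4.91), Cldn18 (3.94, 6.12), Thbs1 (3.89, 3.34) and Aldh3a1 (-3.46, -3.01) stood at 2-fold or more on the same side in each, but the rule that named the largest differences, which these 5 met, asked for 2-fold or more on plate A2, so this is no support. Bpifb1 (-10.17, -0.65) and Reg3g (-9.55, 0.45) did not.

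**Figure D5:**
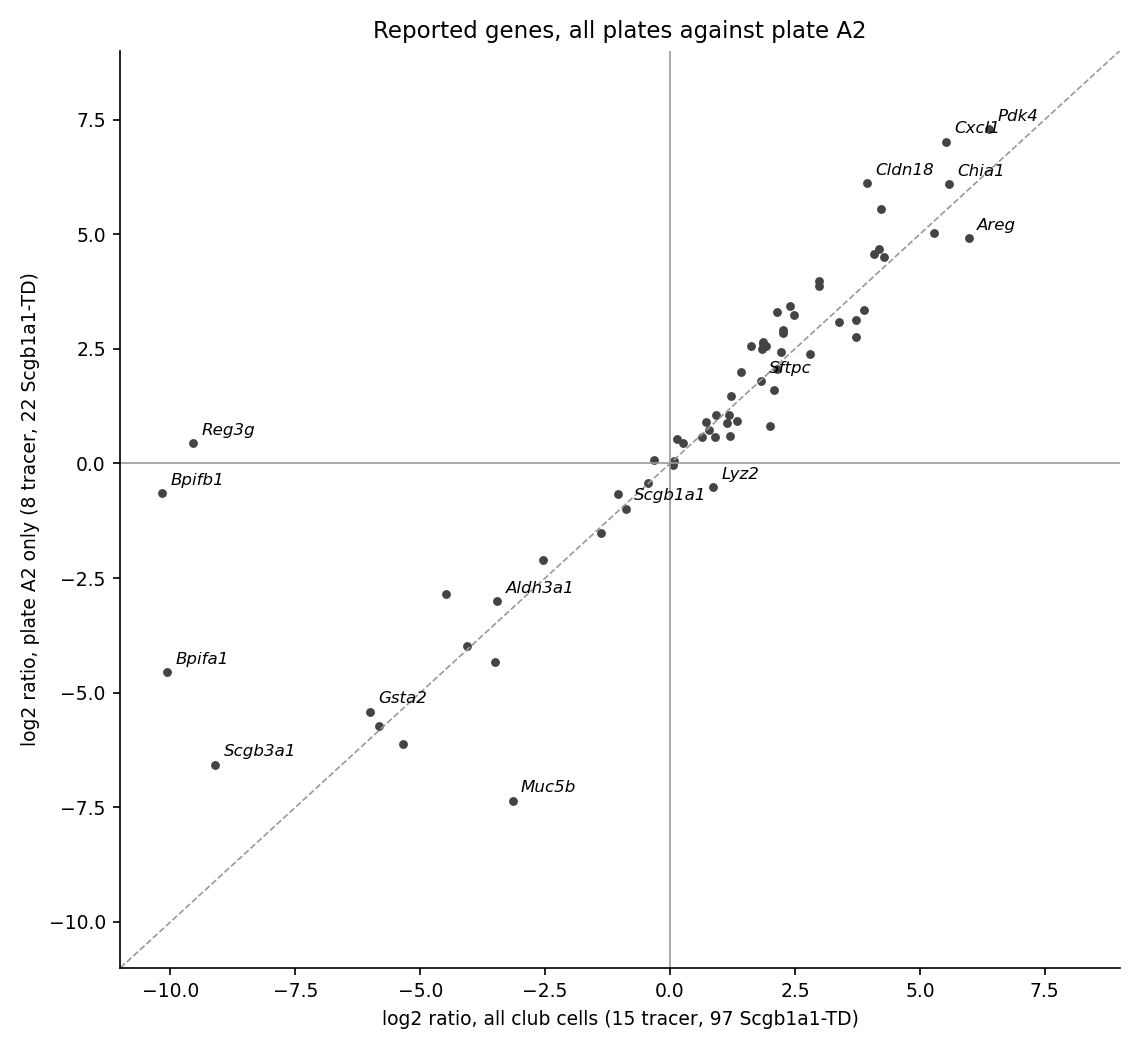
Log2 ratio of each reported gene over all club cells (horizontal) and on plate A2 alone (vertical), with the dashed line at equal values. Chia1, Areg and Cldn18 lie at the upper right, Bpifb1 and Reg3g lie far to the left at a height near 0, and Lyz2 (0.86 and -0.51) changes sign.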

How the data were processed

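The authors deposited a table of read counts per gene and cell, without scaling or molecular identifiers. HISAT2, HTSeq and the GRCm38 build are named, per the submitters' processing notes, and no version of either tool is stated there. Symbols and positions came from GENCODE M21 (53379 gene identifiers in the table). Deposited columns were joined to samples by name and 0 were left over. Lines and sub-types came from the labels, and no doublet caller was run. Counts were summed per group, scaled to CPM by all gene-assigned reads and compared as log2 ratios with 1 CPM added, among genes at 5 CPM or more in either group. Depth per cell is given in the report, and exact Poisson and Clopper-Pearson intervals at 95% cover counting error only. The ratio steps were tested on simulated data. The highest correlation between any pair of cells was 0.948, so no cell was counted as a repeat.

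Named genes were the 4 markers, Scgb1a1, Scgb3a2, Scgb3a1, Cyp2f2, Sftpc and Lyz2, the 15 largest ratios per direction and up to 4 plus 4 members of each list. The 15 had to reach 50 CPM where they were higher, be detected in 50% of those cells, differ 2-fold or more on plate A2, and keep their direction for plate A1 tracer cells and in the median over cells, which 430 higher and 226 lower genes met. The markers, lists and rules were chosen with earlier results of these data known. The levels of 100 and 1000 CPM used to count high cells were chosen after values had been seen. Python 3 with numpy, scipy and pandas was used. Alternatives changed weighting, scaling, pseudocount, filters, depth, plates and single cells.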

Additional observations from a re-analysis of the deposited data

How the results depend on the processing

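Values here are log2 ratios or shares of measured genes 2-fold or more apart, and the 2 settings marked below as added were chosen after the data had been seen. Leaving out 1 cell at a time gave ranges of 5.33 to 5.80 for Chia1, 5.24 to 6.20 for Areg, -10.74 to -10.07 for Bpifb1, -10.13 to -9.40 for Reg3g, 0.749 to 1.36 for the AT2 list median, -0.765 to -0.486 for the club cell list median, 20.8% to 22.6% of measured genes higher and 27.4% to 32.1% lower. On plate A2 alone Areg was at 4.91, Bpifb1 at -0.652, Reg3g at 0.447, the AT2 list at 0.437 and the ciliated list at 1.29. Without plate A1 Areg was at 4.91 and the AT2 list at 0.402; without plate A3 Chia1 was at 6.53 and the ciliated list at 1.30; without plate A4 Bpifb1 was at -9.57. Weighting cells equally gave 1.07 for the ciliated list, -7.11 for Bpifb1 and -6.57 for Reg3g. With 10 CPM added, Areg was at 4.25, Bpifb1 at -7.51 and Reg3g at -7.53, with 1283 genes (12.2%) higher and 1438 (13.7%) lower. Thinning gave 5.39 for Areg and -10.14 for Reg3g. Without a filter on low genes 5332 (25.7%) were lower and the MHC class II list median was -0.109; at 50 CPM or more, 897 (26.7%) were higher and 10% lower. The median over cells (added) gave 8.48 for Chia1, 4.26 for Areg, 0.0 for Bpifb1 and Reg3g, 0.467 for Muc5b, 1.94 for the AT2 list, and 879 genes (30.5%) higher and 687 (23.9%) lower. With tracer cells of plate A1 only (added), Areg was at 6.97, Bpifb1 at -10.93, Reg3g at -11.11, H2-Ab1 at -0.056 and the club cell list at -1.28. Weighting cells equally moved the median of all genes by 0.143. The cause of these changes was not tested, apart from the smaller number of cells or genes that a setting holds.

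The main limits are 15 tracer cells, no named animals, sub-types taken from the labels, and plates A1, A3 and A4 that each held club cells of 1 line. Values of genes carried by a few cells, such as Bpifb1, Reg3g and Areg, rest on those cells. No paired analysis was possible because no animal is named and replicate numbers only name cells.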
